A study of Homo sapiens with 6 samples.

Results

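The 9 genes described here encode proteins that build a new centriole and proteins that report a failed or prolonged mitosis. They were chosen by symbol and matched by Ensembl identifier to 9 of the 58336 genes in the count table. A2780 cells, an ovarian cancer line, were exposed to DMSO, the vehicle, or to TH588 at 6 µM for 48 h. TH588 is a first-generation mitotic MTH1 inhibitor. MTH1 is the hydrolase that removes oxidized nucleotides before they enter DNA. RNA was sequenced from 3 replicates (A, B and C) of each treatment, 6 libraries in all and each replicate an independent experiment by the series record, and both groups are the same line in the same medium. The data therefore cover 1 line, 1 dose and 1 time.

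A centriole is copied once per cell cycle. The kinase PLK4 is brought to the wall of the parent centriole by CEP152 and CEP192, where it binds and phosphorylates STIL, and STIL recruits SASS6 to build the cartwheel on which CEP135 and microtubules assemble. Surplus centrosomes can be sensed by the PIDDosome, in which the scaffold PIDD1 and the adaptor CRADD activate the caspase encoded by *CASP2*, and that caspase cleaves the ubiquitin ligase MDM2. Loss of centrosomes or a prolonged mitosis is reported separately, through the deubiquitinase USP28, while the ubiquitin ligase TRIM37 limits the growth of microtubule-organizing foci away from centrioles.

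The libraries held between 28537837 and 99074175 counts. TH588 replicate A was the shallowest, and 21.94% of its counts came from the small nucleolar RNA *SNORD3A*, whose share elsewhere was 7.68% to 12.95%. Of 10 ovarian carcinoma markers, 6 (*PAX8*, *WT1*, *MUC16*, *KRT8*, *KRT19* and *CDH1*) did not pass the filter on low counts, while *VIM*, which encodes the mesenchymal filament vimentin, averaged 3585 CPM with DMSO and 3795 CPM with TH588 and did not pass the test. The other 3 were called: *EPCAM* averaged 0.643 CPM with DMSO and 4.74 CPM with TH588, *KRT18* was higher by 0.88 on the log2 scale, and *CDH2* changed by -0.37. CPM is the count normalized to library size, here after TMM scaling of the libraries, and every edgeR p-value below is adjusted over all 15844 genes tested with edgeR's quasi-likelihood test. A gene was called at an adjusted p under 0.05.

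Each of the 9 genes passed the test after TH588. The 5 assembly genes were lower, as were *USP28* and *TRIM37*, and the PIDDosome genes *PIDD1* and *CRADD* were higher. Across all genes tested 49.6% were called, 25.3% as lower and 24.2% as higher, so 7 of 9 lower is to be read against 25.3%. The 9 genes were chosen with earlier results of these data known, so this comparison is a description only. The 9 genes had a median log2 fold change of -0.44, against 0.019 for all genes tested. In none of the 9 did the libraries of the treatments overlap, which held for 57.7% of all genes tested (29.0% lower and 28.7% higher). In bulk RNA, fewer cycling cells and less RNA per cell cannot be told apart.

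**Figure D1:**
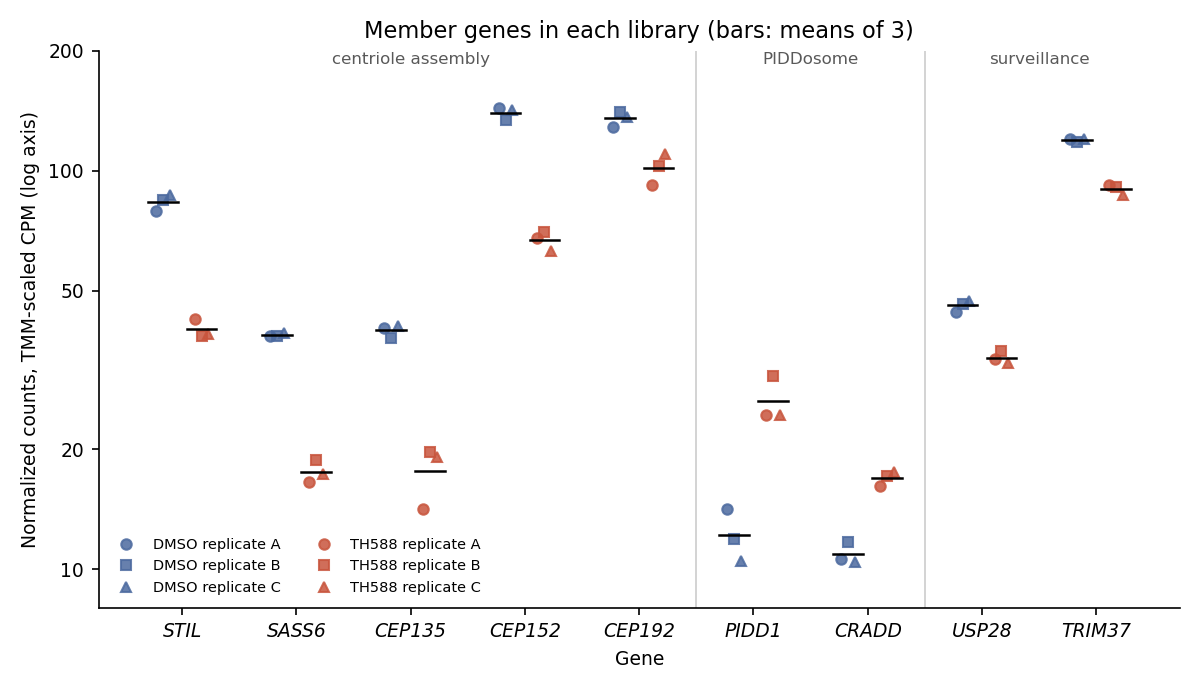
Normalized counts (TMM-scaled CPM, log axis) of the 9 genes in each of the 6 libraries, blue for DMSO and red for TH588, with a bar at each mean of 3. Of the 2 PIDDosome genes, *PIDD1* rises from a mean of 12.2 to 26.4 CPM and *CRADD* from 10.9 to 16.9 CPM. The other 7 genes fall without overlap between treatments.

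The promoters of the 4 assembly genes that fell most and of the 2 genes that rose are shown. A part of these promoters in the changes was not tested. Each is a stretch of 150 bases from RefSeq on GRCh38 (GRCh38.p14), 5′ to 3′ on the gene's strand. It runs from 125 bases before to 25 after the start site. That of *CEP152* instead runs from 250 to 101 bases before the start, chosen because its motif matches lie there. The stretch used for the other genes would show none of the *CEP152* matches. Capitals mark letters of motifs of cell cycle promoters: the E2F motif (spelled TTCCCGC, with TTCGCGC as another spelling, TTGCCGC as a further spelling and TTGGCGC as the last), the cell cycle homology region or CHR (TTTGAA, or with the other spelling TTCGAA) and the CCAAT box (CCAAT), on either strand.
STIL, chr1:47314123-47314272, minus strand: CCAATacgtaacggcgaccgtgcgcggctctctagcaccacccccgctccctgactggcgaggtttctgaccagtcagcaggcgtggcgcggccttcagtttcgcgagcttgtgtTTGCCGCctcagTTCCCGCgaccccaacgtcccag
SASS6, chr1:100132906-100133055, minus strand: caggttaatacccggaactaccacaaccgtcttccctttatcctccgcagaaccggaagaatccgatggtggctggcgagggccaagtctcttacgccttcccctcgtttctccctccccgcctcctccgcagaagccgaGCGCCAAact
CEP135, chr4:55948820-55948969, plus strand: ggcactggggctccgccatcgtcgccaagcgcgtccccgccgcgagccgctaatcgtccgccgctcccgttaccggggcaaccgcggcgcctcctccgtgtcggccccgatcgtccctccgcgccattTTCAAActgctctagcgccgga
CEP152, chr15:48811170-48811319, minus strand: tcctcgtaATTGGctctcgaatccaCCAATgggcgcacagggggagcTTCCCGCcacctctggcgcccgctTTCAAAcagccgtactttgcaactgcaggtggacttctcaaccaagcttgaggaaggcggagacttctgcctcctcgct
PIDD1, chr11:805207-805356, minus strand: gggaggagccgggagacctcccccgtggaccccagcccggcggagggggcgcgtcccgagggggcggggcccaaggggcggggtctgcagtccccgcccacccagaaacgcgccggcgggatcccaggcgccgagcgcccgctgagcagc
CRADD, chr12:93677250-93677399, plus strand: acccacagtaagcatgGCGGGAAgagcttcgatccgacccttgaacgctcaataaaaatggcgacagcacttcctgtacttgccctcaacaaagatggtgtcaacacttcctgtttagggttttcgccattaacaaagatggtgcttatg

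In the whole window, from 250 bases before to 50 after the start, the E2F letters were found in 6 of the 9 genes: *STIL*, *SASS6*, *CEP152*, *CEP192*, *TRIM37* and *CRADD*. They were present in 13.0% of the 35116 promoter windows of this length. Those windows were not limited to genes expressed here and can hold several starts of a gene. For each of the 9 genes a single start was used, so the shares of all windows are a description only. The CHR letters were found in *CEP135*, *CEP152* and *CEP192*, against 16.4% of all windows, and CCAAT in *STIL*, *CEP152* and *CEP192*, against 34.6%. *STIL* held 3 CCAAT and 2 E2F matches, and *CEP192* held 3 E2F matches although it fell less than the 4 genes shown. *CRADD*, which rose, also held an E2F match, and *USP28*, which fell, held none of these motifs. The *PIDD1* start that RefSeq lists lies 4522 bases inside the gene as the count table draws it, and for the other 8 genes the starts are at most 77 bases apart. No base was counted under more than a single motif. These are matches of letters only.

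*STIL* (ENSG00000123473; chromosome 1, 47250139 to 47314147 on GRCh38) measured 79.4, 84.4 and 86.9 CPM in the control replicates A, B and C, and 42.5, 38.5 and 38.9 CPM in TH588 replicates A, B and C. Every treated library thus lay far below every control library. The change was -1.07 on the log2 scale (SE 0.08, edgeR adjusted p = 6.73e-07), which left 47.8% of the DMSO level. STIL is the scaffold that switches on PLK4 and carries SASS6, and 4.49% of the genes tested had a lower log2 fold change.

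*SASS6* (ENSG00000156876; chromosome 1, 100083563 to 100132955), which encodes the cartwheel protein, was the steadiest of the 9 with DMSO, at 38.4, 38.5 and 39.1 CPM. With TH588 it measured 16.6, 18.8 and 17.3 CPM. Its change of -1.13 on the log2 scale (SE 0.09, edgeR adjusted p = 6.73e-07) left 45.6% of the DMSO level. A second annotated gene on the same strand shares 292 of its exon bases, 7.35% of them, and had 0 CPM in both groups. How reads of shared bases were counted is not known, so that 0 does not show that the gene was silent.

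*CEP135* (ENSG00000174799; chromosome 4, 55948871 to 56033363) encodes the protein between the cartwheel and the microtubule wall. It measured 40.3, 38.1 and 40.8 CPM with DMSO and 14.2, 19.7 and 19.1 CPM with TH588. TH588 replicate A, the shallowest library, was the lowest of the treated ones, and the treated libraries varied with a coefficient of variation of 16.9%, against 3.65% in the controls. The change of -1.16 on the log2 scale (SE 0.11, edgeR adjusted p = 5.88e-06) was the largest fall of the 9 with all libraries. Without that library it was -1.02, a smaller fall than those of *STIL* (-1.10), *SASS6* (-1.09) and *CEP152* (-1.06).

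*CEP152* (ENSG00000103995; chromosome 15, 48712928 to 48811146) and *CEP192* (ENSG00000101639; chromosome 18, 12991362 to 13125052) encode the receptors that place PLK4 on the centriole. *CEP152* measured 143.3, 134.0 and 142.3 CPM with DMSO and 67.6, 70.0 and 62.9 CPM with TH588, that is, a change of -1.07 on the log2 scale (SE 0.08, edgeR adjusted p = 5.65e-07). *CEP192* measured 128.8, 140.4 and 136.7 CPM with DMSO and 92.3, 102.7 and 109.9 CPM with TH588, that is, a change of -0.41 on the log2 scale (SE 0.09, edgeR adjusted p = 0.00158). With DMSO the receptors were thus close in CPM, although per kilobase of exon *CEP152* (17.1) stood above *CEP192* (13.7). After TH588 *CEP152* kept 47.8% of its level and *CEP192* 75.2%. When only library size was normalized for, which moved the median of all genes from 0.019 to 0.126, *CEP192* was at -0.30 and no longer passed (adjusted p = 0.0559). CEP192 is also needed for the pericentriolar material that grows before mitosis.

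*PIDD1* (ENSG00000177595; chromosome 11, 799179 to 809753) measured 14.2, 11.9 and 10.5 CPM in the control replicates A, B and C, and 24.4, 30.6 and 24.4 CPM in TH588 replicates A, B and C. The lowest treated library was well above the highest control, although its libraries varied, with coefficients of variation of 15.3% and 13.6%. PIDD1 is the scaffold on which the PIDDosome forms. The change was 1.12 on the log2 scale (SE 0.13, edgeR adjusted p = 2.43e-05), a 2.17-fold rise that 9.76% of the genes tested exceeded. The highly expressed ribosomal protein gene *RPLP2* shares 107 exon bases with it on the opposite strand, and *RPLP2* averaged 770.4 CPM with DMSO and 812.8 CPM with TH588 (0.08 on the log2 scale, edgeR adjusted p = 0.508). The library kit does not keep strand, so reads from those bases cannot be told apart.

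*CRADD* (ENSG00000169372; chromosome 12, 93677375 to 93894840) encodes the adaptor whose death domain binds that of PIDD1. It measured 10.6, 11.7 and 10.4 CPM with DMSO and 16.2, 17.1 and 17.5 CPM with TH588, so the treated libraries lay close together and above all controls. The change was 0.64 on the log2 scale (SE 0.10, edgeR adjusted p = 0.000274), a 1.55-fold rise.

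*USP28* (ENSG00000048028; chromosome 11, 113797874 to 113875570) encodes the deubiquitinase that acts after a long mitosis. It measured 44.3, 46.4 and 47.2 CPM with DMSO and 33.6, 35.2 and 33.0 CPM with TH588, that is, a change of -0.44 on the log2 scale (SE 0.08, edgeR adjusted p = 0.000552). *TRIM37* (ENSG00000108395; chromosome 17, 58982638 to 59106921) measured 120.4, 117.8 and 119.9 CPM with DMSO and 92.0, 91.0 and 87.1 CPM with TH588, that is, a change of -0.41 on the log2 scale (SE 0.07, edgeR adjusted p = 0.000553). Both transcripts kept similar shares of their level, 73.8% and 75.4%, with little spread in either group. *PPM1E*, a phosphatase gene, shares 284 exon bases with *TRIM37* on the other strand and rose from 7.47 to 12.5 CPM in mean level (0.75 on the log2 scale, edgeR adjusted p = 0.000574).

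**Figure D2:**
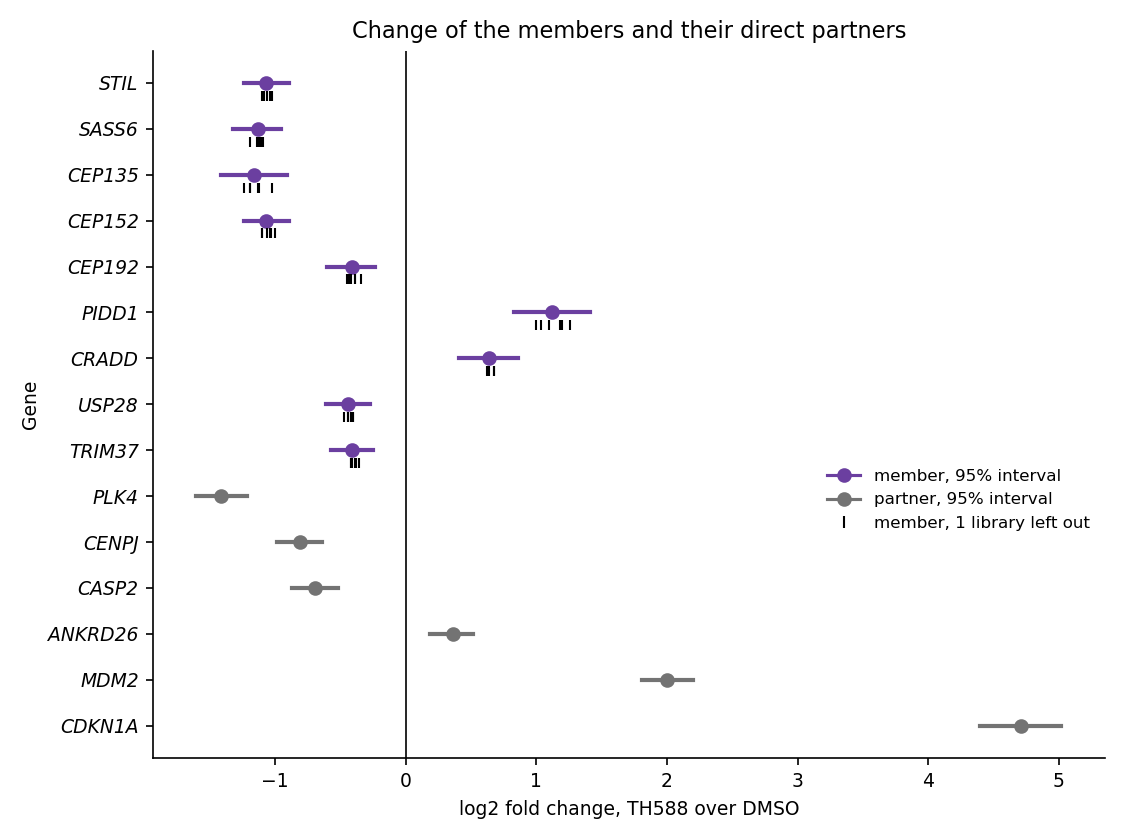
Log2 fold change of TH588 over DMSO (x axis) with its 95% interval for the 9 genes (purple) and 6 direct partners (gray), with ticks for the 6 fits that each left out 1 library. The 4 assembly genes at the top lie near -1.1, *CEP192*, *USP28* and *TRIM37* near -0.4, and *PIDD1* and *CRADD* above 0.

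Levels of different genes were compared per kilobase of exon. With DMSO, *TRIM37* was the most abundant of the 9, at 21.8 CPM per kilobase, followed by *CEP152* (17.1), *CEP192* (13.7), *STIL* (11.5), *SASS6* (9.74), *USP28* (8.04), *CEP135* (4.6), *CRADD* (2.55) and *PIDD1* (2.08). The ranges of the 3 libraries did not overlap between any neighbours in this order. With TH588, *TRIM37* was still first at 16.4 CPM per kilobase, and *CEP192* (10.3) stood above *CEP152* (8.18), *USP28* (5.93), *STIL* (5.48), *PIDD1* (4.51), *SASS6* (4.43), *CRADD* (3.96) and *CEP135* (2.04). There the ranges of *USP28* and *STIL* overlapped, and so did those of *PIDD1* and *SASS6*. *PIDD1*, the least abundant of the 9 in control cells, was thus not separated from *SASS6* after treatment by this length, and *CRADD* came just below both. The exon length in the table joins all transcripts of a gene. When the longest single transcript was used instead, *CRADD*, whose joined exons are much longer than any of its transcripts, moved up from 8 to 7 in the order with DMSO and from 8 to 4 with TH588. *CEP152* then stayed above *CEP192* in treated cells, with overlapping ranges, while *PIDD1* (5.88) stood above *SASS6* (4.43) without overlap and *CRADD* (11.5) above both.

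**Figure D3:**
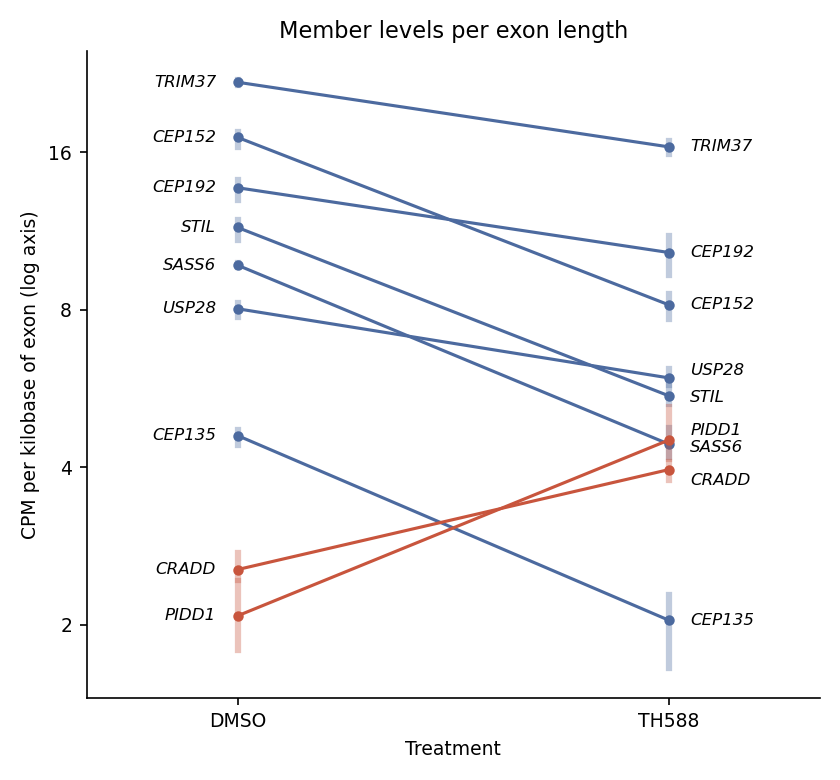
Mean level per exon length (CPM per kilobase, log axis) with DMSO and TH588, red for genes that rose and blue for genes that fell, with pale bars over the range of 3 libraries. With TH588 the ranges of *PIDD1* and *SASS6* overlap (means 4.51 and 4.43 CPM per kilobase), and *CEP152* crosses below *CEP192*. Neither holds with the longest transcript as length.

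Ratios within a library do not depend on how libraries are scaled to each other. For 3 against 3 libraries the exact two-sided permutation test cannot go below p = 0.1, and p-values were adjusted over 7 pairs. *STIL* over *CEP192*, per exon length, was 0.837, 0.816 and 0.863 with DMSO and 0.626, 0.509 and 0.480 with TH588 (exact p = 0.1, adjusted 0.175), so the fall of *STIL* was the steeper in all 3 treated libraries. *PIDD1* over *CRADD* was 0.976, 0.739 and 0.735 with DMSO and 1.09, 1.31 and 1.01 with TH588 (exact p = 0.1, adjusted 0.175), without overlap but with a small gap between DMSO replicate A and TH588 replicate C. In contrast, *USP28* over *TRIM37* averaged 0.369 ± 0.0145 with DMSO and 0.361 ± 0.0104 with TH588 (SD, n = 3 each, exact permutation p = 0.5, adjusted 0.7). The ratios of *SASS6* over *CEP135* and *STIL* over *SASS6* changed by 0.04 and 0.08 on the log2 scale, with overlap between the groups (exact permutation p = 0.9 and 0.6, adjusted 0.9 and 0.7). These small values do not show that the pairs changed alike. A pair added after the values were seen, *CEP152* over *CEP192*, averaged 1.26 ± 0.0961 with DMSO and 0.802 ± 0.0990 with TH588 (SD, n = 3 each, exact permutation p = 0.1, adjusted 0.175).

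The direct partners moved with the side of the pathway they serve in some cases only. *PLK4*, which encodes the kinase that starts duplication, was at 57.2 to 63.5 CPM with DMSO and 21.0 to 24.7 CPM with TH588, that is, a change of -1.41 on the log2 scale (SE 0.09, edgeR adjusted p = 2.07e-07), a larger fall than those of its receptors and substrate. *CENPJ*, which encodes a protein of centriole elongation, changed by -0.81 on the log2 scale (edgeR, adjusted p = 4.69e-06). *CASP2*, the third PIDDosome gene, fell from 76.9 CPM (SD 4.44, n = 3) to 47.5 CPM (SD 2.55, n = 3), that is, a change of -0.69 (edgeR, adjusted p = 2.17e-05), while *PIDD1* and *CRADD* rose. The ratio of *PIDD1* over *CASP2* per exon length, also added after the values were seen, was 0.195 to 0.259 with DMSO and 0.694 to 0.840 with TH588. *ANKRD26*, which encodes the appendage protein that holds PIDD1 at the parent centriole, rose by 0.36 (edgeR, adjusted p = 0.00209). By contrast *CEP83* and *SCLT1*, which encode inner appendage proteins, changed by -0.52 and -0.61 (edgeR, adjusted p = 0.000232 and 0.000212).

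*MDM2*, whose product is the caspase's substrate, and *CDKN1A*, which encodes an inhibitor of cyclin-dependent kinases, rose 4.01-fold and 26.2-fold, so *PIDD1* at 2.17-fold and *CRADD* at 1.55-fold were smaller rises in the same libraries.

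Of 113 other centrosome and surveillance genes in 6 overlapping lists, 111 could be tested. Of these, 59 were lower and 21 higher (53.2% and 18.9%), with a median log2 fold change of -0.36. Across all genes tested, 25.3% were lower and 24.2% higher, and the count of each list is to be read against these shares. Among other centriole assembly and length factors, 17 of 34 were lower and 3 were higher. The largest falls were those of *PLK4* and *TEDC2* (-1.28), a partner of delta- and epsilon-tubulin, and the largest rises those of *CEP97* (0.88), whose product caps the growing centriole with CCP110, and *WDR90* (0.80). *CCP110* itself did not pass (95% interval -0.13 to 0.25). In the pericentriolar material and gamma-tubulin ring list, 19 of 31 were lower and 3 higher, or 5 higher without TH588 replicate A. There *TUBGCP3* (-1.30), a core subunit of the ring, and *HAUS8* (-1.14), a subunit of augmin, fell most, and *TUBG2* (1.03) and *NINL* (0.58) rose most. The gamma-tubulin genes went in opposite directions: *TUBG1*, the abundant copy, averaged 289.1 and 198.6 CPM (SD 25.7 and 13.7), and *TUBG2* 24.2 and 49.6 CPM (SD 2.22 and 3.43, n = 3 each), without and with TH588. These copies are nearly identical in sequence, and how reads that match both were counted is not given in the sources used here, so both values are uncertain.

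Of the centriole appendage genes, 9 of 16 were lower (56.2%), led by *LRRC45* (-0.97) and *NIN* (-0.84), and 5 were higher (31.2%). The higher ones included *TTBK2* (0.39) and *CEP164* (0.39), which act together at the distal appendages. Over all genes tested the shares were 25.3% lower and 24.2% higher. In the list of licensing and turnover, 10 of 17 were lower and 5 higher (58.8% and 29.4%). The 5 higher calls fell to 2 or 3 under most of the alternative settings given below. There were 2 without DMSO replicate B or without TH588 replicate A. *FBXO5* (-2.03), which encodes an inhibitor of the anaphase-promoting complex, and the replication licensing gene *CDC6* (-1.95) fell most, while *PLK2* (2.16), a polo-like kinase gene, and *FBXW7* (0.69), a substrate receptor for ubiquitin ligation, rose most. Among PIDDosome partners 6 of 10 were lower, led by *BUB1B* (-1.30), and 2 were higher, *MDM2* and *ANKRD26*. The surveillance partners were the list in which rises were most frequent, with 5 of 11 higher and 4 lower, the largest falls being those of *PLK4* and *PLK1* (-1.02).

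**Figure D4:**
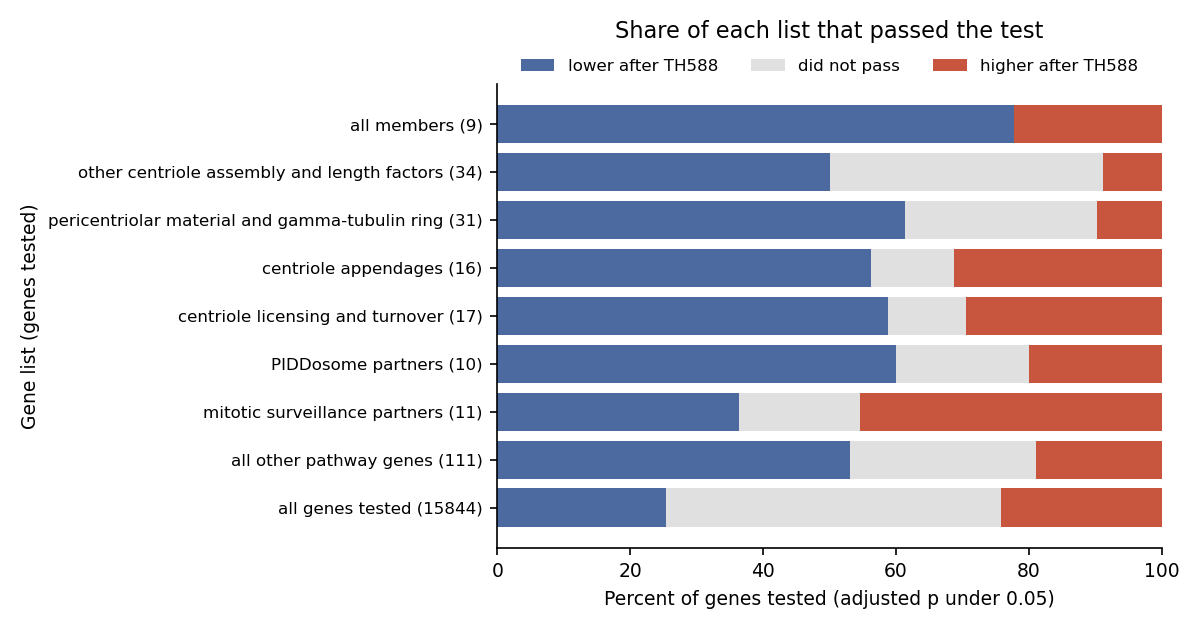
Percent of the genes tested in each list that were lower (blue), higher (red) or did not pass (gray) at an adjusted p under 0.05. The 9 genes split into 77.8% lower and 22.2% higher, the other pathway genes into 53.2% and 18.9%, and all genes into 25.3% and 24.2%.

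Transcripts of dividing cells fell in the same libraries. All 12 proliferation markers, among them *MKI67* and *TOP2A*, were lower (median change -1.14 on the log2 scale), against 25.3% of all genes tested. Their summed level was 3836 to 4050 CPM with DMSO and 1413 to 1731 CPM with TH588. *STIL*, *SASS6*, *CEP135* and *CEP152* had changes of similar size, between -1.16 and -1.07, and the part of this shift in their falls was not tested. Markers of other cell types were checked in the same way. The 7 leukocyte markers summed to 0.0608 to 0.192 CPM with DMSO and 0.347 to 0.607 CPM with TH588, with *CD3E* and *CD3D* at 0 in all libraries, and the 5 endothelial markers summed to 0.243 to 0.569 and 0.486 to 0.827 CPM. The 7 fibroblast markers, of which *COL3A1* was abundant in both groups (1733 and 2278 CPM), summed to 1609 to 1934 CPM and 1909 to 2648 CPM. Of the 7, 4 were called higher, against 24.2% of all genes tested. All libraries were made from the A2780 line, and the part of these transcripts in the results was not tested.

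Over the 6 libraries, the genes most like *STIL* in log2(CPM + 1) among 9704 genes searched were *WDHD1* (Pearson's r = 0.9999) and *NUP155* (r = 0.9997), which changed by -1.13 and -1.17 on the log2 scale. Those most like *PIDD1* were *UBXN6* (r = 0.9999) and *TMEM44* (r = 0.9980), which rose by 0.84 and 0.74. With 2 groups of 3 such values mostly restate the difference between treatments: 318 genes reached r = 0.99 with *STIL* and 43 with *PIDD1*.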

How the data were processed

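Gene counts were deposited by the authors without normalization. Per the labels, polyA RNA was made into TruSeq v2 libraries, a kit that does not mark strand, aligned with TopHat to GRCh38 and counted with featureCounts 1.4.6. How reads of overlapping or repeated genes were counted is not given in the sources used here. The exon length per gene was also deposited.

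The counts were matched to symbols by Ensembl identifier. All 161 listed genes overlapped the same gene in GENCODE v44. edgeR 4.0.16 in R 4.3.3 was used with TMM, the default filter and the quasi-likelihood test (3 DMSO against 3 TH588, no block), with Benjamini-Hochberg adjustment over all genes tested. Standard errors are the log2 fold change over the square root of F, and intervals are 95%. The 9 genes and the lists were chosen with earlier results of these data known. Named besides them are 6 direct partners (other partners are not reported here) and, per list, up to 2 rises and 2 falls whose groups do not overlap and whose average log2 CPM is 2 or more. *CEP83*, *SCLT1*, *CCP110*, *TUBG1* and marker genes were named after their values were seen. The authors' own test was DESeq2, an alternative here (1.42.0). Other alternatives were limma-voom (limma 3.58.1), scaling by DESeq2's size factors or by library size, library sizes without *SNORD3A*, other filters, each library left out, a replicate block and an adjusted p under 0.01.

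Replicates differed beyond sampling noise (chi-square per degree of freedom 26.3 to 190). These values come from raw counts scaled by total counts only, with *SNORD3A* included, so its uneven share enters them. Each library was counted as 1 sample because, per the labels, the groups hold independent experiments.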

Additional observations from a re-analysis of the deposited data

How the results depend on the processing

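Of 135 values of the 9 genes under 15 alternatives, 134 kept their direction and their side of the threshold. The exception was *CEP192* with library size only, at -0.30 (adjusted p = 0.0559). That scaling moved the median of all genes to 0.126, and the share of calls in the higher direction to 60.4%, from 48.9%. All 9 genes were called with the replicate block, under which 7195 genes were called in all, 7129 of them also called without it, against 7852. Libraries of the same letter did not deviate together (correlations of -0.07, -0.08 and 0), so the letters were not taken as pairs. Without 1 library at a time, between 6805 and 7914 genes were called. *CEP135* then ranged from -1.24 to -1.02, and *PIDD1* was at most 1.26. Higher calls in the licensing and turnover list fell from 5 to 2 or 3 under 11 alternatives (DESeq2, limma-voom, no filter, the block, library sizes without *SNORD3A*, an adjusted p under 0.01 and all fits without a library except that without TH588 replicate C). The pericentriolar list had 5 higher calls, against 3, without TH588 replicate A. The cause was not tested.

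Without TH588 replicate A, the small ratio changes turned sign, and over all fits without a library they ranged from -0.06 to 0.12 for *SASS6* over *CEP135* and from -0.01 to 0.15 for *STIL* over *SASS6*. With the longest transcript as length, the order with DMSO had *CRADD* at 7 and *CEP135* at 8, and that with TH588 had *CEP152* at 2, *CEP192* at 3, *CRADD* at 4, *USP28* at 6, *PIDD1* at 7 and *SASS6* at 8. A count of 0 allows 3 counts, 0.105 CPM in TH588 replicate A and at most 0.0386 CPM elsewhere, which covers counting error only and is far below the 9 genes.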
